A study of Mus musculus with 24 samples.

Results

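Homologous recombination and the Fanconi anaemia pathway were described through 35 genes, chosen by symbol from the 24614 genes of the count table, in ID8 mouse ovarian cancer cells that the labels give as Trp53 Brca2 double knockout. All 35 had a row, all 35 passed the filter on low counts (11698 genes did), and no library had 0 counts for any of them. The study compared 4 lines, and all 4 share the Trp53 and Brca2 edits. Clones 1CF10 and 2CD7 carry a CRISPR knockout of Ifnar1, a subunit of the receptor for type I interferon. EV is the control that received an empty CRISPR vector. WT is the untransfected control, which carries the Trp53 and Brca2 edits like the others. Each line was sampled after 3 h with 10000 IU/ml recombinant mouse interferon beta (IFN beta) and untreated, with 3 libraries in each of the 8 groups. The labels call these libraries technical replicates treated on 1 date, and the Ifnar1 knockout is represented by 2 clones. The p-values below therefore measure the spread between such libraries, and an effect of the knockout cannot be told apart from differences between clones.

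RNA was counted as unique molecular identifiers (UMIs) near the 3′ ends of polyadenylated transcripts, and the libraries held 1972192 to 3097331 UMIs. Over all libraries the 35 genes gave between 160 UMIs (Rad51c) and 8949 UMIs (Fen1), so counting error is largest for Rad51c, Xrcc3 (229 UMIs) and Fancc (276 UMIs). Tags at the 3′ end do not show whether a transcript is intact, and the Brca2 values below check neither the Brca2 edit nor the protein. Treated 1CF10 library 3 stood apart from its 2 replicates: the chi-square per gene between them was 3.82 and 4.89, against 1.42 to 2.80 in the 22 other pairs of replicates. Values without it are given beside the calls and responses of treated 1CF10; without it 2 of 6 calls among the 35 genes were left for treated 1CF10 minus EV, 1 of 3 for treated 2CD7 minus 1CF10 and 0 of 1 for clones minus controls. The 18 interferon response genes used to check the treatment summed to 5080 to 7063 CPM (UMIs per 1000000 UMIs of the library) in treated EV and WT, and all 18 rose in both. They summed to 73.0 to 76.5 CPM in treated 1CF10, against 60.4 to 86.2 CPM untreated, and to 71.2 to 151 CPM in treated 2CD7, against 57.8 to 74.6 CPM untreated. In the clones edgeR called none of them, with 1 in each at an unadjusted p under 0.05, and the median log2 change was 0.04 in 1CF10 and 0.66 in 2CD7, where 15 of the 18 lay above 0. Untreated EV and WT had 120 to 290 CPM. Of the mesothelial and ovarian surface markers, Krt8, Krt18, Krt19, Wt1, Msln, Upk1b and Cdh2 were above 100 CPM in all 24 libraries, Upk3b and Gata4 lay between 0.803 and 22.8 CPM, and Krt7, Lrrn4, Cdh1, Muc16 and Bnc1 stayed under 3 CPM, each at 0 in some libraries. Of 16 leukocyte markers, 11 have no row in the table, and the others summed to 0.760 to 4.54 CPM. Of 10 endothelial markers, Flt1 and Esam were counted in all 24 libraries and the whole list summed to 19.5 to 38.7 CPM.

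Homologous recombination repairs a double-strand break or a collapsed replication fork by copying an intact sister chromatid. The Mre11a-Rad50-Nbn complex senses the end, nucleases resect it, replication protein A (RPA) coats the single strand, and Brca1, Bard1, Palb2 and Brca2 prepare the strand to invade the sister chromatid. The Fanconi anaemia pathway unhooks crosslinks between DNA strands: a core complex tags the Fancd2-Fanci pair with ubiquitin, and repair ends in homologous recombination. Loss of BRCA2 is a known defect of human ovarian cancers and makes cells depend on other repair routes.

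Atm and Brca2 were the only 2 of the 35 genes called for a response to IFN beta in any line. Chek1 was the only one called for a different response in clones and controls. The stretches of their promoters below are from RefSeq on GRCm38.p6 and lie before the annotated start site, with matches to 3 motifs in capitals. They are limited to bases outside the gene as GENCODE annotates it or, for Chek1, whose window lies inside it, to 30 bases around the match. The motifs were the core of the interferon-stimulated response element (ISRE), which is GAAA repeated after any 2 bases, sites for the E2F cell cycle factors (TTTCCCGC, TTTCGCGC, TTTGCCGC or TTTGGCGC) and the CCAAT box, each searched on both strands of 250 bases.
Atm, chr9:53536741-53536921, minus strand, 181 bases: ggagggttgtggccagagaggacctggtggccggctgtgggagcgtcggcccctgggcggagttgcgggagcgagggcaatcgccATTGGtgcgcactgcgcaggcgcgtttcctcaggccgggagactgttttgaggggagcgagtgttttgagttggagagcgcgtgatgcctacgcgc
Brca2, chr5:150522371-150522620, plus strand, 250 bases: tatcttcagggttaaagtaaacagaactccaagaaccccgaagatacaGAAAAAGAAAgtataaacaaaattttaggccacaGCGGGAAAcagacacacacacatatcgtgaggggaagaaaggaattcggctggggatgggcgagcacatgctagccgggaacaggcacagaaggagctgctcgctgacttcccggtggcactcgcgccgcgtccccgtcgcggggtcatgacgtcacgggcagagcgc
Chek1, chr9:36726839-36726868, minus strand, 30 bases: ccccgtgccaTTTCCATTTCattcggactc
The Brca2 window held an ISRE core 202 to 193 bases before the start and an E2F match on the other strand 168 to 161 bases before it. The Chek1 stretch held an ISRE core on the other strand, 200 to 191 bases before the start. The Atm window held a CCAAT box on the other strand and no match to the ISRE core or E2F letters. Of the 35 genes, 27 had a window in the RefSeq table. Of these, 3 held an ISRE core (Brca2, Brip1 and Chek1), against 2.98% of all 32851 windows, 3 held an E2F match (Bard1, Brca2 and Chek2), against 1.86%, and 15 held a CCAAT box, against 33.9%. A gene counted if any of its windows matched, while the percentages are shares of single windows, so they are not like for like. These matches describe letters and show no binding.

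Brca2 acts on resected DNA, ahead of strand invasion, and is the gene edited in all 4 lines. The gene (ENSMUSG00000041147) spans chr5:150522630-150570329 on the plus strand of GRCm38, with 27 exons in GENCODE M21, and its last exon, where tags are primed, overlaps no other annotated gene. Its level was 24.4, 20.0 and 27.4 CPM in treated 1CF10, against 32.5, 31.1 and 29.7 CPM in untreated 1CF10. In 2CD7 it was 21.6, 23.0 and 18.1 CPM after IFN beta, against 16.7, 18.9 and 20.9 CPM untreated. Treated libraries were all below untreated ones in 1CF10, and the groups overlapped in 2CD7. In EV it was 24.5, 20.7 and 23.1 CPM after IFN beta, against 34.9, 26.8 and 31.3 CPM untreated. In WT it was 16.3, 11.8 and 10.6 CPM after IFN beta, against 17.0, 20.8 and 25.1 CPM untreated. In both controls every treated library lay below every untreated one.

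Brca2 was called in 8 of 19 contrasts, more than any other of the 35 genes. Its response to IFN beta passed the test in WT, with a log2 change of -0.67 ± 0.19 (SE, adjusted p = 0.0190). It was -0.41 ± 0.16 in EV (adjusted p = 0.179), -0.38 ± 0.16 in 1CF10 (adjusted p = 0.998) and 0.16 ± 0.18 in 2CD7 (adjusted p = 0.997). The responses of clones and controls were not shown to differ (difference 0.43 ± 0.17, adjusted p = 0.184), nor were those of the 2 clones (0.54 ± 0.24, adjusted p = 1.00). Without treated 1CF10 library 3 the response in 1CF10 was -0.47 and these differences were 0.37 and 0.62. The call in WT was lost without treated WT library 2 (-0.60, adjusted p = 0.114), without treated WT library 3 (-0.54, adjusted p = 0.1502) and without untreated WT library 3 (-0.48, adjusted p = 0.277), and DESeq2 gave an adjusted p of 0.0704.

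Between lines, untreated Brca2 was lower in 2CD7 than in EV, with a log2 difference of -0.73 ± 0.17 (adjusted p = 0.00166), and lower in 2CD7 than in 1CF10, with -0.70 ± 0.17 (adjusted p = 0.00161). After IFN beta it was higher in EV than in WT by 0.81 ± 0.19 (adjusted p = 0.00107) and higher in 1CF10 than in WT by 0.80 ± 0.19 (adjusted p = 0.000455). These 4 calls held in all 13 alternatives, leave-one-out fits included, and the last was 0.71 without treated 1CF10 library 3. Treated 2CD7 was also above treated WT, by 0.65 ± 0.19 (adjusted p = 0.0142). That call was lost without treated 2CD7 library 2, treated WT library 2 or treated WT library 3 (0.53 to 0.58, adjusted p 0.0766 to 0.105). Untreated EV and untreated 1CF10 lay above untreated WT by 0.54 ± 0.17 and 0.51 ± 0.16 (adjusted p = 0.0181 and 0.0194). The first was lost without untreated EV library 1, EV library 3 or WT library 1 (adjusted p 0.0511 to 0.119). The second was lost without untreated 1CF10 library 1, 1CF10 library 2 or WT library 1 (adjusted p 0.0509 to 0.125). DESeq2 ended both untreated calls (adjusted p = 0.0548 for EV and 0.0537 for 1CF10).

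**Figure D1:**
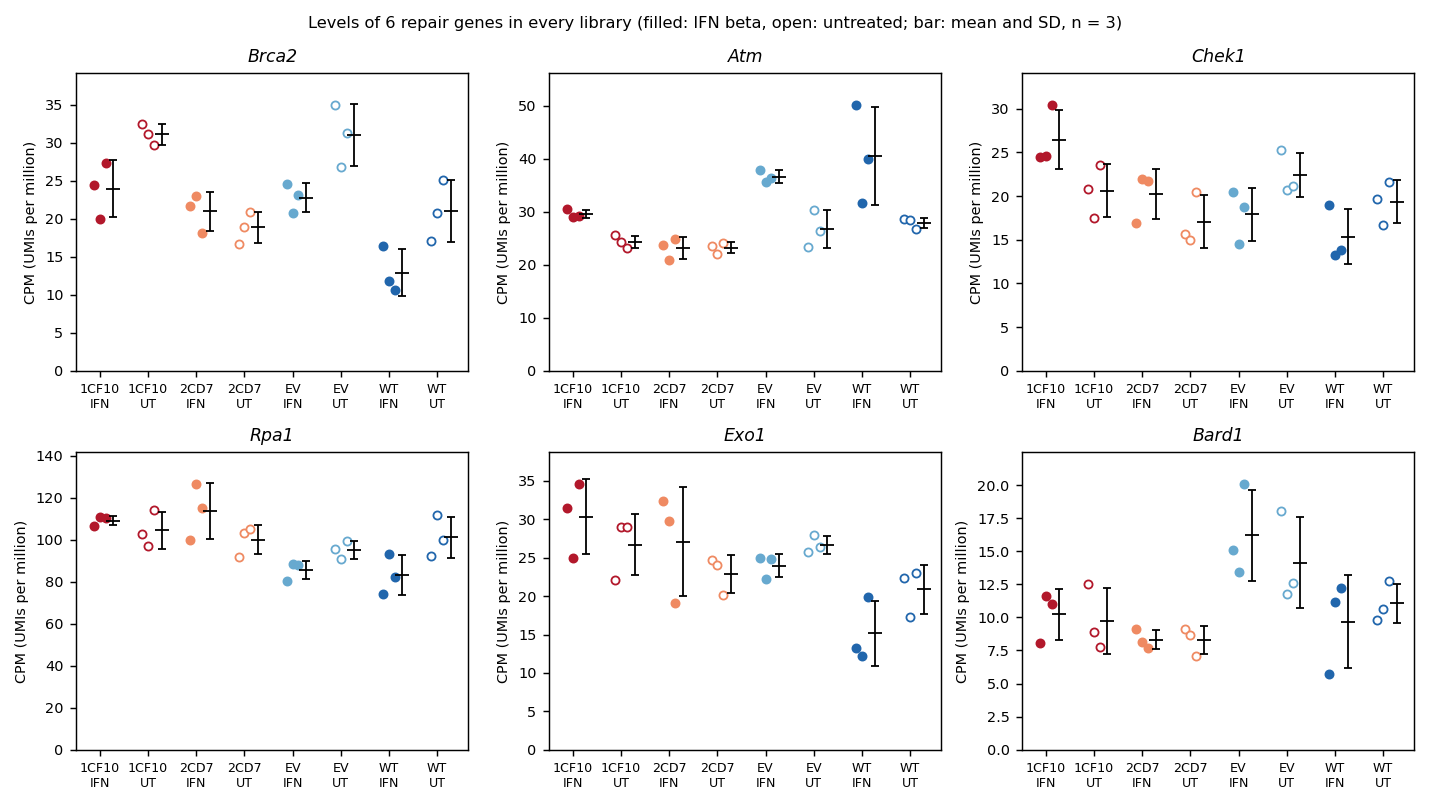
Levels of Brca2, Atm, Chek1, Rpa1, Exo1 and Bard1 in CPM (y axis, from 0) in each of the 24 libraries, by line and treatment (x axis; UT, untreated). Filled points are treated, open points untreated, and bars give mean and SD (n = 3). Atm reaches 31.6 to 50.2 CPM in treated WT and 35.7 to 37.98 CPM in treated EV, above all other groups, and Brca2 is lowest in treated WT.

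Atm is the kinase that answers double-strand breaks, on chr9:53439149-53536740 of the minus strand. Its level was 37.98, 35.7 and 36.3 CPM in treated EV, against 23.3, 30.4 and 26.4 CPM in untreated EV. In WT it was 50.2, 31.6 and 39.9 CPM after IFN beta, against 28.6, 28.4 and 26.8 CPM untreated. In both controls every treated library lay above every untreated one. In 1CF10 it was 30.5, 29.1 and 29.3 CPM after IFN beta, against 25.5, 24.3 and 23.2 CPM untreated, again without overlap. In 2CD7 it was 23.8, 20.9 and 25.0 CPM after IFN beta, against 23.6, 22.0 and 24.1 CPM untreated, with overlap.

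Atm rose after IFN beta in WT, by 0.58 ± 0.15 on the log2 scale (adjusted p = 0.00452), and in EV, by 0.50 ± 0.15 (adjusted p = 0.0312). The log2 change was 0.27 ± 0.15 in 1CF10 (95% interval -0.03 to 0.57) and -0.02 ± 0.16 in 2CD7 (-0.34 to 0.31), and neither passed the test. Without treated 1CF10 library 3 the change in 1CF10 was 0.30. The response of the clones minus that of the controls was -0.41 ± 0.15 (adjusted p = 0.129), so the difference was not shown over all genes. It passed the threshold in 1 of 31 alternatives, without treated WT library 2 (-0.50, adjusted p = 0.0373). Over all alternatives it ranged from -0.50 to -0.34, with adjusted p up to 0.291. Without treated 1CF10 library 3 it was -0.41 (adjusted p = 0.147). In WT the call was lost only without treated WT library 1 (0.41, adjusted p = 0.132). In EV it was lost without any one of the libraries other than untreated EV library 2 (adjusted p 0.0677 to 0.245), and DESeq2 gave an adjusted p of 0.119.

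Over the 35 genes, 2 were called in the WT response (5.71%), against 6.85% of all genes tested. In EV 1 was called (2.86%), against 5.09%. In 1CF10 and 2CD7 edgeR called none of the 35 and none of all 11698 genes (0%), and DESeq2 called none of the 35 there. At an unadjusted p under 0.05 stood 3 of the 35 in 1CF10 (8.57%), against 4.15% of all genes, and 1 in 2CD7 (2.86%), against 4.36%. At that threshold stood 25.7% of the 35 genes in WT, against 17.0% of all genes, and 8.57% in EV, against 14.1% of all genes. The share of the 35 called was thus at or below the background in every line. In WT 2 of the 35 had all treated libraries above the untreated ones and 6 below, against 8.87% and 15.2% of all genes. In EV 1 lay above and 6 below, against 8.80% and 12.4%. In 1CF10 3 lay above and 1 below, against 4.92% and 3.24%, and in 2CD7 1 above and 1 below, against 5.27% and 4.42%. The fitted log2 response farthest from 0 was that of Dna2 in WT, at -0.996 ± 0.40 (95% interval -1.77 to -0.22), and it was not called (adjusted p = 0.140).

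The medians of the 35 log2 responses were 0.04 in 1CF10, 0.00 in 2CD7, -0.12 in EV and -0.11 in WT, against 0.00, 0.01, -0.01 and -0.02 for all genes. In EV 25 of the 35 lay below 0, and in WT 21 did, against 51.5% and 54.1% of all genes. The summed level of the 35 genes was 924.9 to 973.6 CPM in treated EV, against 1032 to 1038 CPM in untreated EV. It was 824 to 872 CPM in treated WT, against 916 to 972 CPM in untreated WT. In both controls the sums of treated and untreated libraries did not overlap, while in 1CF10 they were 1024 to 1034 CPM after IFN beta, above 967 to 999 CPM untreated, and 1024 and 1033 CPM without treated library 3. In 2CD7 they were 944 to 1010 CPM after IFN beta, against 961 to 989 CPM untreated, with overlap. Bulk counts cannot tell fewer cells in a cell cycle phase from less RNA per cell.

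In CPM the summed levels of 3 related lists were also lower in both treated controls, without overlap. CPM use the library total alone, without the TMM factors by which the fit scales it. These factors were 0.964 to 0.978 in treated WT, against 0.998 to 1.002 in untreated WT. In EV they were 0.968 to 0.974 treated, against 0.991 to 1.009 untreated. Sums in CPM thus lie lower in treated controls than they would after scaling, those of the 35 genes included. In treated 1CF10 the factors were 1.018, 1.023 and 1.056 in libraries 1, 2 and 3, against 1.015 to 1.024 in untreated 1CF10. The CPM sum of treated 1CF10 library 3 thus lies higher, relative to untreated 1CF10, than it would after scaling. No scaled sums were made, so the separation of the 35 genes in 1CF10 is given for CPM only. The 48 S phase replication genes summed to 5624 to 5678 CPM in treated EV, against 6017 to 6077 CPM in untreated EV, and to 4864 to 4958 CPM in treated WT, against 5301 to 5461 CPM in untreated WT. The 44 G2 and mitosis genes summed to 4154 to 4202 CPM in treated EV, against 4488 to 4720 CPM in untreated EV, and to 3578 to 3736 CPM in treated WT, against 4020 to 4174 CPM in untreated WT. A further 51 recombination and Fanconi genes, described below, summed to 2664 to 2677 CPM in treated EV, against 2782 to 2836 CPM in untreated EV, and to 2836 to 2932 CPM in treated WT, against 2934 to 2973 CPM in untreated WT. In the scaled fit the median log2 response of this last list was -0.05 in EV and -0.02 in WT, against -0.01 and -0.02 for all genes. In WT this list thus lay at the median of all genes. The medians in EV and WT were -0.08 and -0.09 for the S phase genes, and -0.10 and -0.17 for the G2 and mitosis genes. In the clones treated and untreated sums of all 3 lists overlapped. Of the S phase genes 3 fell in WT (6.25%) and 1 in EV (2.08%), with none higher. Of the G2 and mitosis genes 7 fell and 1 rose in WT (18.2% called), and 1 fell and 1 rose in EV (4.55% called). Of all genes tested 6.85% were called in WT and 5.09% in EV, so only the G2 and mitosis genes in WT exceeded the background. The part of cell cycle phase in the responses of the 35 genes was not tested.

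**Figure D2:**
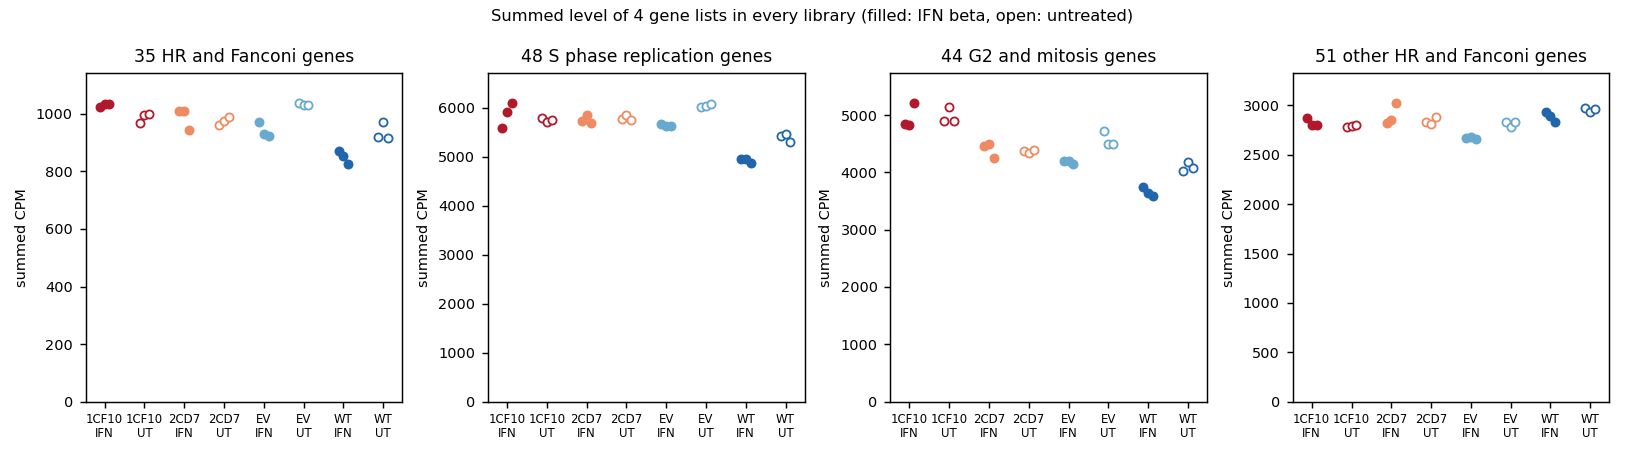
Summed CPM (y axis, from 0) of the 35 genes, of 48 S phase genes, of 44 G2 and mitosis genes and of 51 other recombination and Fanconi genes in each library, by line and treatment (x axis; filled treated, open untreated). In EV and WT the treated points of all 4 panels lie below the untreated ones, in CPM that do not carry the TMM factors of the fit.

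**Figure D3:**
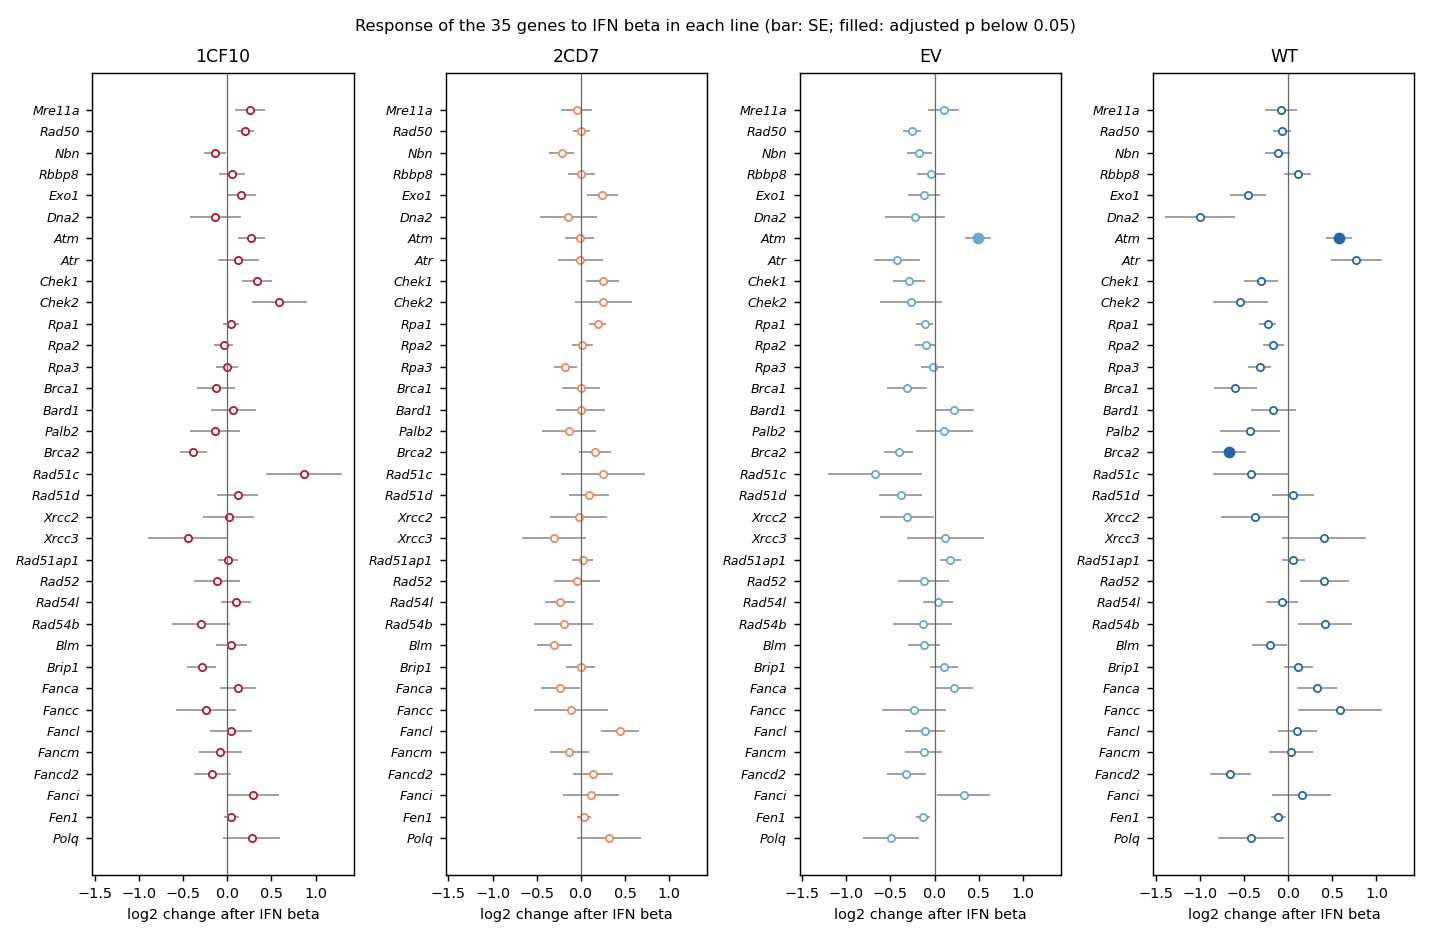
Log2 change after IFN beta (x axis) of each of the 35 genes (y axis, ordered by role) in 1CF10, 2CD7, EV and WT; points are estimates of the fit, bars their SE, and filled points passed the adjusted threshold of 0.05. The filled points are Atm in EV at 0.50, and Atm at 0.58 and Brca2 at -0.67 in WT.

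Chek1, the kinase that Atr activates at stalled forks, was the gene called for a different response in clones and controls. It lies on chr9:36708482-36727065 of the minus strand. Its level was 24.4, 24.5 and 30.4 CPM in treated 1CF10, against 20.8, 17.5 and 23.6 CPM in untreated 1CF10. In 2CD7 it was 16.9, 22.0 and 21.8 CPM after IFN beta, against 15.6, 14.9 and 20.5 CPM untreated. Treated libraries were above untreated ones in 1CF10 and overlapped with them in 2CD7. In EV it was 20.4, 14.6 and 18.8 CPM after IFN beta, against 25.3, 20.7 and 21.2 CPM untreated. In WT it was 19.0, 13.2 and 13.8 CPM after IFN beta, against 19.7, 16.7 and 21.7 CPM untreated. Treated libraries were below untreated ones in EV and overlapped with them in WT.

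The log2 response of Chek1 was 0.34 ± 0.17 in 1CF10, 0.25 ± 0.19 in 2CD7, -0.29 ± 0.18 in EV and -0.31 ± 0.19 in WT, and none of the 4 passed the test by itself. Without treated 1CF10 library 3 it was 0.24 in 1CF10. The mean response of the clones minus that of the controls was 0.59 ± 0.18 (adjusted p = 0.0418), and 5.24% of all genes were called in this contrast. The other 34 genes were not called in it; at an unadjusted p under 0.05 stood 10 of the 35 (28.6%), against 14.98% of all genes. Rpa1 had 0.29 ± 0.10 (adjusted p = 0.0722) and Exo1 0.49 ± 0.18 (adjusted p = 0.122). The Chek1 call was lost in 14 of 24 fits that left out 1 library (0.51 to 0.59, adjusted p 0.0577 to 0.125). These libraries were, treated, 1CF10 3, 2CD7 2 and 3, EV 2 and 3, WT 2 and 3, and, untreated, 1CF10 1 and 2, 2CD7 1 and 2, EV 1, WT 1 and 3. Without treated 1CF10 library 3, the one that stood apart, it was 0.53 (adjusted p = 0.100), DESeq2 gave 0.58 with an adjusted p of 0.148, and the fit without a filter 0.58 with 0.0716. No gene of the 35 was called, by edgeR or DESeq2, for a different response in EV and WT or in 2CD7 and 1CF10. Of all genes edgeR called 0.0427% and 0%. At an unadjusted p under 0.05 by edgeR stood 1 of the 35 in each (2.86%), against 6.88% and 4.05% of all genes.

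Most calls were differences between the lines. Over the 6 pairs of lines, 16 calls fell to the 35 genes in untreated libraries and 30 in treated ones. All 50 calls, responses included, fell to 19 genes, and 13 of the 50 were lost by leaving out none of the libraries compared. DESeq2 ended 28 of the 50, all of them among the 37 that a left-out library ended. It kept the other 9 of these, which were Atm in the WT response and for treated 1CF10 minus WT, Atr for untreated EV minus WT, Brca2 and Fen1 for treated 2CD7 minus WT, Exo1 for treated EV minus WT, and Rpa1 for treated 1CF10 minus WT, 2CD7 minus EV and 2CD7 minus WT. In treated libraries 9 of the 35 were called between 1CF10 and WT (25.7%), against 32% of all genes, 6 between 1CF10 and EV (17.1%), against 18.9%, and 5 between 2CD7 and WT (14.3%), against 14%. Between treated 2CD7 and EV 3 were called (8.57%), against 15.5%, between treated EV and WT 4 (11.4%), against 19.2%, and between treated 2CD7 and 1CF10 3 (8.57%), against 15.2%. In untreated libraries 5 were called between EV and WT (14.3%), against 14.1%, and 3 each between 1CF10 and EV, 1CF10 and WT and 2CD7 and 1CF10 (8.57%), against 10.4%, 19.2% and 13.4%. Between untreated 2CD7 and EV 2 were called (5.71%), against 8.86%. Between untreated 2CD7 and WT edgeR and DESeq2 called none, against 3.51% of all genes by edgeR. At an unadjusted p under 0.05 stood 3 of the 35 in this pair (8.57%), against 16.0% of all genes. No test compared these shares. Contrasts that share a line share its libraries, so the calls below are not independent of each other. Groups of 3 libraries without overlap were common between lines. Of all genes 10.3% to 26.8% lay wholly above and 10.8% to 17.3% wholly below, depending on the contrast. For treated 1CF10 minus WT 13 of the 35 lay wholly above and 1 wholly below, against 26.8% and 16.3% of all genes.

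**Figure D4:**
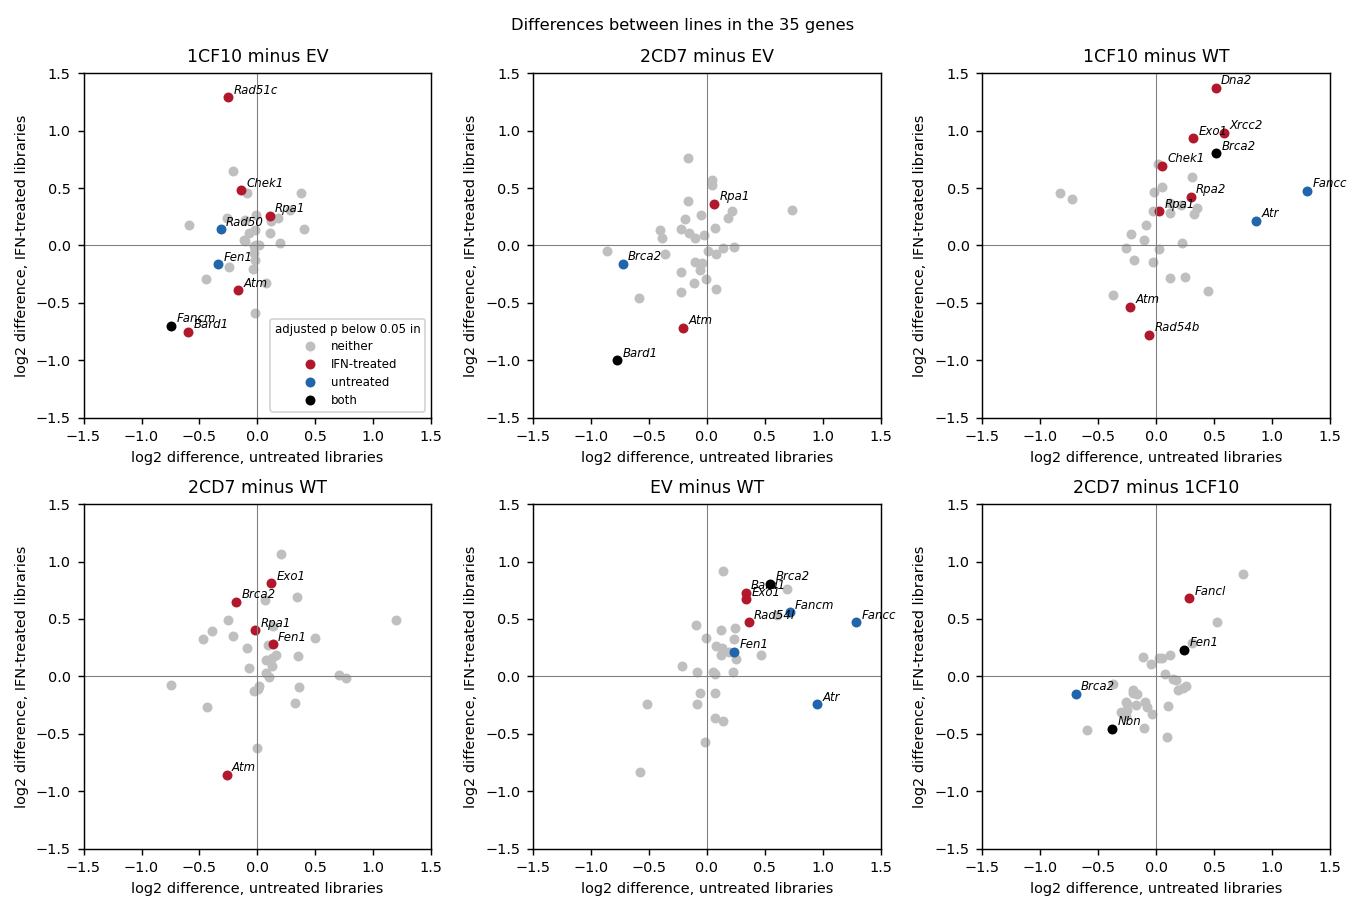
Log2 difference between lines in treated libraries (y axis) against that in untreated libraries (x axis) for the 35 genes, in the 6 pairs of lines; red, blue and black points passed the adjusted threshold of 0.05 in treated, untreated or both kinds of libraries, and grey ones in neither. Black points are Fancm for 1CF10 minus EV, Bard1 for 2CD7 minus EV, Brca2 for 1CF10 minus WT and EV minus WT, and Nbn and Fen1 for 2CD7 minus 1CF10.

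Among the checkpoint kinases, treated Atm was lower in both clones than in both controls. The log2 difference was -0.72 ± 0.15 for 2CD7 minus EV (adjusted p = 0.000280) and -0.86 ± 0.15 for 2CD7 minus WT (adjusted p = 1.07e-05), and both held in all 13 alternatives. It was -0.53 ± 0.14 for 1CF10 minus WT (adjusted p = 0.00199), lost only without treated WT library 1 (-0.36, adjusted p = 0.0692) and -0.51 without treated 1CF10 library 3. It was -0.39 ± 0.14 for 1CF10 minus EV (adjusted p = 0.0462), a call lost without any one of the 6 libraries (adjusted p 0.0600 to 0.127) and -0.37 without treated 1CF10 library 3. Untreated Atm passed the test in none of the 6 pairs, with log2 differences of -0.26 to -0.04. Treated Chek1 was higher in 1CF10 than in WT by 0.70 ± 0.18 (adjusted p = 0.00166), a call that held in all 13 alternatives, and without treated 1CF10 library 3 it was 0.60. In 1CF10 it exceeded EV by 0.48 ± 0.18 (adjusted p = 0.0456), lost without each library but treated EV library 1, and 0.38 without treated 1CF10 library 3 (adjusted p = 0.185).

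Atr, the kinase recruited to RPA-coated DNA, was higher in untreated EV and 1CF10 than in WT. Its level was 14.1, 12.6 and 8.54 CPM in untreated EV and 13.0, 10.4 and 10.7 CPM in untreated 1CF10, against 6.26, 5.58 and 6.19 CPM in untreated WT, without overlap. The log2 difference was 0.95 ± 0.28 for EV minus WT (adjusted p = 0.0134) and 0.86 ± 0.28 for 1CF10 minus WT (adjusted p = 0.0212). The first was lost without untreated EV library 1 (0.81, adjusted p = 0.0982), the second without untreated 1CF10 library 1, WT library 2 or WT library 3 (adjusted p 0.0586 to 0.0759). After IFN beta Atr was called in no pair of lines. Its mean level was then 8.45 CPM in EV and 12.6 CPM in 1CF10, against 9.99 CPM in WT, so EV no longer lay above WT. The log2 response was 0.77 ± 0.29 in WT (adjusted p = 0.102) and -0.42 ± 0.26 in EV (adjusted p = 0.498), and neither passed the test. The last exon of Atr overlaps Gm16794 on the other strand, and the counting strand is not given, so reads of the 2 cannot be told apart.

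Rpa1, the large subunit of RPA, had 106 to 111 CPM in treated 1CF10 and 99.9 to 127 CPM in treated 2CD7, against 80.5 to 88.4 CPM in treated EV and 74.1 to 93.2 CPM in treated WT. No library of either clone lay below one of either control. Treated 2CD7 lay above WT by 0.40 ± 0.10 (adjusted p = 0.00181) and above EV by 0.36 ± 0.10 (adjusted p = 0.00439), both lost without treated 2CD7 library 2 (adjusted p = 0.0505 and 0.0844). Treated 1CF10 lay above WT by 0.30 ± 0.10 (adjusted p = 0.0128), lost without treated WT library 1 (0.21, adjusted p = 0.141) and 0.30 without treated 1CF10 library 3. The excess of 1CF10 over EV was 0.26 ± 0.10 (adjusted p = 0.0489), lost without any one of the 6 libraries (adjusted p 0.0765 to 0.184), and 0.26 without treated 1CF10 library 3. Untreated Rpa1 was called in no pair, with log2 differences of -0.08 to 0.11. Rpa2, the middle subunit, had 61.6, 69.5 and 64.2 CPM in treated 1CF10, against 40.3, 50.1 and 46.0 CPM in treated WT. The difference of 0.42 ± 0.12 (adjusted p = 0.00307) held in all 13 alternatives and was 0.44 without treated 1CF10 library 3, and Rpa3, the small subunit, was called nowhere.

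Exo1 and Dna2, the long-range resection nucleases, were both higher in treated 1CF10 than in WT. Exo1 had 31.5, 25.0 and 34.6 CPM in treated 1CF10, 32.5, 29.8 and 19.1 CPM in treated 2CD7 and 24.9, 22.2 and 24.8 CPM in treated EV, against 13.3, 12.2 and 19.9 CPM in treated WT. Only library 3 of 2CD7 lay below a WT library. Exo1 was higher than in WT by 0.93 ± 0.18 in 1CF10 (adjusted p = 4.76e-05) and by 0.81 ± 0.19 in 2CD7 (adjusted p = 0.00136), and both held in all 13 alternatives, the first at 0.85 without treated 1CF10 library 3. In EV it exceeded WT by 0.67 ± 0.19 (adjusted p = 0.00927), lost without treated WT library 1 or 2 (0.59 and 0.52, adjusted p = 0.0509 and 0.0928). Dna2 had 10.0, 9.57 and 6.46 CPM in treated 1CF10, against 3.80, 3.82 and 1.63 CPM in treated WT, without overlap. The difference of 1.37 ± 0.36 (adjusted p = 0.00224) was past the threshold in all 12 alternatives in which Dna2 was tested, and was 1.55 without treated 1CF10 library 3. Treated Dna2 did not pass the test for EV minus WT (0.91 ± 0.40, adjusted p = 0.101) or 2CD7 minus WT (1.06 ± 0.39, adjusted p = 0.0580).

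Of the end sensors, Nbn was lower in 2CD7 than in 1CF10 in both treatments. After IFN beta it had 28.6, 24.8 and 27.7 CPM in 2CD7, against 41.5, 33.3 and 38.4 CPM in 1CF10, and untreated 33.1, 30.3 and 29.98 CPM in 2CD7, against 40.3, 43.2 and 40.4 CPM in 1CF10. The groups did not overlap in either. The log2 difference was -0.46 ± 0.14 treated (adjusted p = 0.0151) and -0.38 ± 0.13 untreated (adjusted p = 0.0409). The treated call was lost without treated 1CF10 library 1 (-0.38, adjusted p = 0.103) or 2CD7 library 2 (-0.39, adjusted p = 0.109), and was -0.47 without treated 1CF10 library 3. The untreated one was lost without any one of the 6 libraries (adjusted p 0.0573 to 0.161). Rad50 was lower in untreated 1CF10 than in EV, with a log2 difference of -0.32 ± 0.10 (adjusted p = 0.0233). That call was lost without untreated 1CF10 library 1 or 3 or EV library 1 or 2 (adjusted p 0.0752 to 0.186). Mre11a, the nuclease of the complex, was called nowhere.

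Bard1, the partner of Brca1, was highest in EV. It had 15.1, 13.5 and 20.1 CPM in treated EV, against 5.70, 11.1 and 12.2 CPM in treated WT, and 8.04 to 11.6 CPM in treated 1CF10 and 7.71 to 9.09 CPM in treated 2CD7. Every treated EV library lay above all other treated libraries. After IFN beta it was lower in 2CD7 than in EV, with a log2 difference of -0.999 ± 0.25 (adjusted p = 0.00184), in all 13 alternatives. It was lower in 1CF10 than in EV (-0.75 ± 0.23, adjusted p = 0.0144), lost without treated 1CF10 library 1 or EV library 3 (adjusted p = 0.0934 and 0.125) and -0.81 without treated 1CF10 library 3. Treated EV also lay above WT by 0.73 ± 0.23 (adjusted p = 0.0200), lost without treated EV library 3 or WT library 1 (0.56 and 0.46, adjusted p = 0.153 and 0.199). Untreated 2CD7 was also below EV (-0.77 ± 0.25, adjusted p = 0.0383), lost without each of the 3 2CD7 libraries and without EV library 1 (adjusted p 0.0571 to 0.292). Brca1 and Palb2 were called nowhere, although Brca1 came close in treated 2CD7 minus WT (adjusted p = 0.0503).

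Among Xrcc2, Rad51c and the DNA translocases Rad54l and Rad54b, each call fell to 1 contrast of treated libraries. Xrcc2 was higher in 1CF10 than in WT, with 9.04, 7.49 and 7.98 CPM, against 3.42, 4.87 and 3.26 CPM in WT (0.98 ± 0.34, adjusted p = 0.0198). The groups did not overlap, and the call was lost without 1CF10 library 1, WT library 1 or WT library 3 (adjusted p 0.0743 to 0.0795); without 1CF10 library 3 it was 1.01. Rad51c was higher in 1CF10 than in EV, with 3.01, 4.58 and 4.18 CPM, against 1.63, 0.728 and 2.14 CPM in EV (1.29 ± 0.47, adjusted p = 0.0461). It rested on few UMIs and was lost without 1CF10 library 2 or 3 or EV library 1 or 2 (adjusted p 0.0854 to 0.241), with 1.25 without 1CF10 library 3. Rad54l was higher in EV than in WT by 0.47 ± 0.17 (adjusted p = 0.0488), lost without each library but WT library 1 (adjusted p 0.0861 to 0.294). Rad54b was lower in 1CF10 than in WT (-0.78 ± 0.31, adjusted p = 0.0489), lost without any of the 3 1CF10 libraries or WT library 1 (adjusted p 0.0509 to 0.416), with -0.91 without 1CF10 library 3. DESeq2 ended all 4 of these calls (adjusted p 0.0571 to 0.147). The call of Rad54l was also lost with RLE size factors (adjusted p = 0.0538) and a minimum count of 30 (adjusted p = 0.0539), that of Rad54b with limma-voom (adjusted p = 0.0814) and that of Rad51c without a filter (adjusted p = 0.0999). The last exon of Rad54l overlaps Lrrc41 on the other strand.

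Of the Fanconi genes, Fancm, the DNA translocase of the pathway, was lower in 1CF10 than in EV in both treatments. It had 10.7, 7.07 and 10.6 CPM in treated 1CF10, against 13.1, 18.6 and 11.96 CPM in treated EV, and 10.8, 9.29 and 10.0 CPM in untreated 1CF10, against 16.9, 17.0 and 15.5 CPM in untreated EV, without overlap. The log2 difference was -0.70 ± 0.23 treated (adjusted p = 0.0223) and -0.75 ± 0.22 untreated (adjusted p = 0.0182). The treated call was lost without 1CF10 library 2 (-0.55, adjusted p = 0.125) or EV library 2 (-0.48, adjusted p = 0.230), and was -0.77 without 1CF10 library 3. The untreated call was lost without 1CF10 library 2 or 3 or EV library 1 or 2 (adjusted p 0.0568 to 0.0707). Fancm lies on chromosome 12, where the median of 417 tested genes was -0.44 for untreated 1CF10 minus EV and -0.34 for treated, and 39.1% and 35.7% of them were called lower. The part of the chromosome in the Fancm difference was not tested. Untreated Fancm was also higher in EV than in WT (0.71 ± 0.23, adjusted p = 0.0252), lost without EV library 1 or 2 or WT library 1 or 3 (adjusted p 0.0667 to 0.148).

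Fancc, a core complex subunit, was higher in untreated EV and 1CF10 than in WT. It had 4.42, 8.52 and 4.88 CPM in untreated EV and 7.79, 4.64 and 6.13 CPM in untreated 1CF10, against 2.68, 3.55 and 1.38 CPM in untreated WT, without overlap. The log2 difference was 1.29 ± 0.43 for EV minus WT (adjusted p = 0.0311) and 1.30 ± 0.42 for 1CF10 minus WT (adjusted p = 0.0199). Without untreated WT library 3 both were lost (0.94 and 0.95, adjusted p = 0.238 and 0.184). The first was also lost without EV library 2 or WT library 1 (adjusted p = 0.227 and 0.0532), the second without 1CF10 library 1 (adjusted p = 0.0844). Fancl, the ubiquitin ligase of the core complex, was higher in treated 2CD7 than in 1CF10, with 16.9, 16.7 and 19.1 CPM, against 7.37, 16.6 and 10.3 CPM in 1CF10 (0.68 ± 0.22, adjusted p = 0.0239). It was lost without 1CF10 library 1 (0.43, adjusted p = 0.239), 1CF10 library 3 (0.61, adjusted p = 0.0888) or 2CD7 library 3 (0.63, adjusted p = 0.0822). The last exons of Fancc and Fancl overlap 2010111I01Rik and Vrk2 on the other strand. Fanca, Fancd2 and Fanci were called nowhere.

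Fen1, the flap endonuclease of lagging strand synthesis, differed between lines by small amounts. It was lower in untreated 1CF10 than in EV, with 130 to 137 CPM, against 157 to 171 CPM in EV (log2 difference -0.34 ± 0.08, adjusted p = 0.00249), in all 13 alternatives. It was higher in 2CD7 than in 1CF10 both treated (0.23 ± 0.08, adjusted p = 0.0469) and untreated (0.24 ± 0.08, adjusted p = 0.0413). The treated call was lost without 1CF10 library 1 or 3 or 2CD7 library 1 or 3 (0.19 to 0.22, adjusted p 0.115 to 0.174) and was 0.20 without 1CF10 library 3, the untreated one without 1CF10 library 1 or 3 or 2CD7 library 2 or 3 (adjusted p 0.0914 to 0.144). It was higher in treated 2CD7 than in WT by 0.28 ± 0.08 (adjusted p = 0.0143), lost without 2CD7 library 1 or 3 or WT library 3 (adjusted p 0.0502 to 0.141). It was higher in untreated EV than in WT by 0.23 ± 0.08 (adjusted p = 0.0485), lost without EV library 1 or 3 or WT library 2 or 3 (adjusted p 0.0905 to 0.293). Fen1 lies on chromosome 19, where the median of 424 tested genes was -0.13 for untreated 1CF10 minus EV, and 0.12 for 2CD7 minus 1CF10 both treated and untreated. The part of the chromosome in the Fen1 differences was not tested. The last exon of Fen1 overlaps Gm10143 on the other strand. Polq, the polymerase of a backup end joining route on which cells without BRCA2 are known to depend, was called nowhere.

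**Figure D5:**
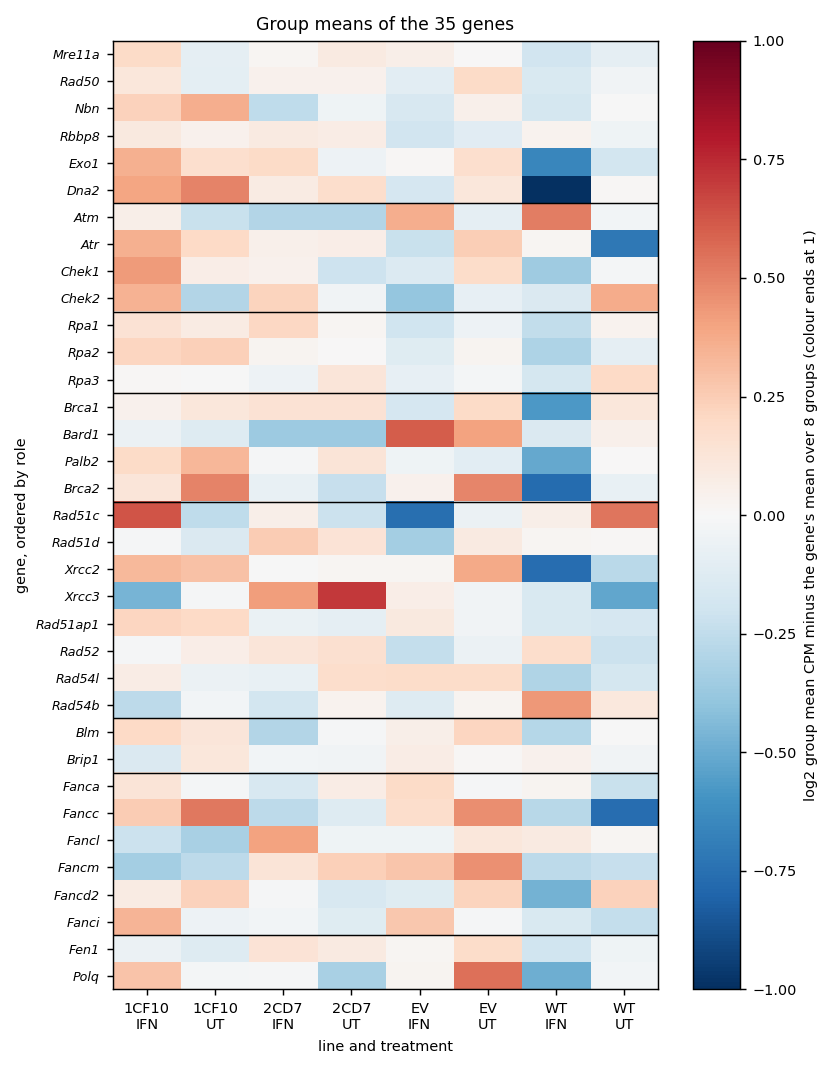
Group means of the 35 genes (rows, grouped by role) in the 8 groups (columns; UT, untreated), as log2 CPM minus the mean of the gene over the groups, with the colour scale ending at 1 in either direction. Treated WT has the lowest value for Brca2, Exo1, Dna2 and Xrcc2, and Bard1 is highest in EV.

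In treated and untreated libraries of a pair 6 calls were made in the same direction, out of 16 untreated and 30 treated calls. They were Brca2 for EV minus WT and 1CF10 minus WT, Fancm for 1CF10 minus EV, Bard1 for 2CD7 minus EV, and Nbn and Fen1 for 2CD7 minus 1CF10. Treated and untreated libraries of a line are different libraries of the same cells from 1 date, so a call in both is no independent repeat. The 2 pairs of Brca2 also share the WT libraries. For comparison, 61.3% to 74.2% of all genes called in untreated libraries of a pair were called in the same direction in treated ones. Of those called in treated libraries, 15.4% to 58.8% were called in untreated ones. The 6 of 16 untreated calls seen again were thus a smaller share than that of all genes.

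The 16 genes called in none of the 19 contrasts were Mre11a, Rbbp8, Chek2, Rpa3, Brca1, Palb2, Rad51d, Xrcc3, Rad51ap1, Rad52, Blm, Brip1, Fanca, Fancd2, Fanci and Polq. Their log2 differences ran from -0.86 (Polq, untreated 2CD7 minus EV) to 1.20 (Xrcc3, untreated 2CD7 minus WT), and the smallest adjusted p was 0.0503, for Brca1. Missing the threshold does not show that a gene did not differ: the SE of a response among the 35 genes was 0.08 to 0.53, with medians of 0.21 to 0.22 in each line.

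A further 52 genes of homologous recombination and the Fanconi pathway were listed, of which 51 have a row and 50 were tested. None was called in the response of any line, by edgeR, against 6.85% of all genes in WT, 5.09% in EV and 0% in each clone. At an unadjusted p under 0.05 stood 5 of the 50 in WT and 5 in EV, against 17.0% and 14.1% of all genes. In 1CF10 2 of the 50 did and in 2CD7 3, against 4.15% and 4.36% of all genes. Smc5, a subunit of the Smc5/6 complex, was called for a different response in clones and controls (0.40 ± 0.11, adjusted p = 0.0132). Between lines, 5 were lower and none higher in untreated 1CF10 than in EV (10.0% called, against 10.4% of all genes). They were Gen1 (-0.998 ± 0.26), a resolvase of recombination intermediates, Faap24 (-0.97 ± 0.20), a partner of Fancm, Ercc1 (-0.85 ± 0.13), part of a crosslink nuclease, Smc6 (-0.51 ± 0.08) and Smc5 (-0.34 ± 0.11). Whole chromosomes were shifted in this contrast, as given above for those of Fancm and Fen1. Chromosomes 7 and 18 were shifted too, with medians of -0.10 and -0.27, and 18.6% and 26.4% of their genes called lower. The chromosomes of these 5 genes are not given here, and the part of chromosome in their differences was not tested. In treated libraries, 9 were higher and 7 lower in 1CF10 than in WT (32.0% called, against 32% of all genes). Treated Fancb, a core complex subunit, was above WT by 1.17 ± 0.31 in 1CF10 and 1.24 ± 0.32 in 2CD7 (adjusted p = 0.00245 and 0.00371).

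Of 19 end joining genes, the routes that compete for the same breaks, 2 fell after IFN beta in EV and none was called in WT or the clones. They were Lig4, the ligase of classical end joining (-0.94 ± 0.28, adjusted p = 0.0279), and Rif1, which opposes resection (-0.40 ± 0.12, adjusted p = 0.0353). Treated Polm, a gap-filling polymerase, was higher than in EV by 1.102 ± 0.31 in 1CF10 and by 1.08 ± 0.32 in 2CD7 (adjusted p = 0.00733 and 0.0125). Parp1, which binds strand breaks, was lower in EV than in WT both treated (-0.54 ± 0.09, adjusted p = 3.47e-06) and untreated (-0.46 ± 0.09, adjusted p = 7.95e-05). Of the 48 S phase genes, 13 were higher in untreated EV than in WT (27.1%, against 14.1% of all genes called in either direction) and 20 in treated EV than in WT (41.7%, against 19.2%), with none lower. In treated libraries 21 were higher and 1 lower in 1CF10 than in WT (45.8% called, against 32%), and 13 higher and 1 lower in 2CD7 than in WT (29.2%, against 14%). Of the 44 G2 and mitosis genes, 9 were higher and 1 lower in untreated EV than in WT (22.7% called), and 15 higher and 1 lower in treated EV than in WT (36.4%). In treated libraries 29 were higher and 1 lower in 1CF10 than in WT (68.2%), and 21 higher and 1 lower in 2CD7 than in WT (50%). The 3 treated pairs are those in which Brca2 and Exo1 were higher than in treated WT, and the part of S phase, G2 and mitosis genes in those differences was not tested.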

How the data were processed

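The deposited file holds UMI counts per Ensembl gene, made by the authors and not normalized; columns were matched to libraries by the labels' descriptions. Per the labels' protocols, 50000 cells per well were plated 24 h before treatment in medium with 4% serum, and 20 ng of RNA were primed with an index of 8 bp and a UMI of 10 bp. Per the submitters' processing notes, cutadapt 3.0, limma 3.50.0, edgeR 3.36.0 and R (3.6.2, 4.1.2) are named as tools, with mm10 and GRCm38 as builds; the aligner and counting strand are not given in the sources used here. All 24 libraries entered 1 edgeR 4.0.16 quasi-likelihood fit (R 4.3.3) on 8 group means, with TMM scaling and filterByExpr (minimum count 10, total 15), which kept 99.5% to 99.6% of UMIs. Adjusted p is Benjamini-Hochberg over 11698 genes with a threshold of 0.05, and ± is the SE unless SD is stated. CPM are UMIs per 1000000 of the library total. The code was tested on simulated data. Alternatives were RLE size factors, DESeq2 1.42.0, limma-voom 3.58.1, no filter, a minimum count of 30, a replicate block, the compared groups alone, and each library left out. Genes were named if called in any contrast, Brca2 always, and of other lists up to 4 per contrast; 1 further gene is not reported here. The genes and lists were chosen with earlier results of these data known. Coordinates are from GENCODE M21 on GRCm38 and promoters from RefSeq on GRCm38.p6.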

Additional observations from a re-analysis of the deposited data

Results flagged for a closer look

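The response to IFN beta of Chek1 differed between the clones and the controls by a test of the difference itself, at 0.59 ± 0.18 on the log2 scale (adjusted p = 0.0418): it was 0.34 and 0.25 in 1CF10 and 2CD7, against -0.29 and -0.31 in EV and WT. The call was lost in 14 of 24 fits that left out 1 library, without treated 1CF10 library 3 among them (0.53, adjusted p = 0.100), with DESeq2 (adjusted p = 0.148) and without a filter on low counts (adjusted p = 0.0716). Smc5, of the further recombination genes, differed in the same way, at 0.40 ± 0.11 (adjusted p = 0.0132).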

How the results depend on the processing

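Of the 50 calls of single genes, DESeq2 kept 22, the fit without a filter 40, the compared groups alone 42 of 49, the minimum count of 30 43 of 44, limma-voom and the replicate block 47 each and RLE size factors 49. Counts of the 35 genes called kept within 1.5 times of the reported ones except as follows. DESeq2 called 1 in the WT response, 0 in the EV response and 0 for clones minus controls. Untreated it called 1 for EV minus WT, 1 for 1CF10 minus EV, 1 for 2CD7 minus EV, 0 for 1CF10 minus WT and 1 for 2CD7 minus 1CF10. Treated it called 2 for EV minus WT, 0 for 1CF10 minus EV and 0 for 2CD7 minus 1CF10. RLE and the minimum count of 30 called 5 for untreated 1CF10 minus WT, and limma-voom 1 for untreated 2CD7 minus EV. Without a filter 1 was called for untreated 2CD7 minus EV and 1 for 2CD7 minus 1CF10, 2 for treated 1CF10 minus EV and 0 for clones minus controls. With the compared groups alone 2 were called for treated 1CF10 minus EV and 0 for treated 2CD7 minus 1CF10. The cause was not tested.

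Leaving out 1 library gave 0 to 1 in the EV response, 1 to 3 in the WT response and 0 to 2 for clones minus controls. Untreated it gave 1 to 4 for EV minus WT, 1 to 3 for 1CF10 minus EV, 1 to 3 for 2CD7 minus EV, 0 to 4 for 1CF10 minus WT and 1 to 2 for 2CD7 minus 1CF10. Treated it gave 2 to 4 for EV minus WT, 1 to 3 for 1CF10 minus EV, 3 to 5 for 2CD7 minus WT and 0 to 3 for 2CD7 minus 1CF10. The sign turned for responses near 0. Rpa1 in 1CF10 ranged from -0.0052 (without untreated 1CF10 library 2) to 0.108, and Atm in 2CD7 from -0.0702 to 0.059 (without treated 2CD7 library 2). The EV minus WT difference of the Atm response ranged from -0.253 to 0.0878, and lay above 0 without untreated EV library 2 or treated WT library 1. RLE moved the median of all genes by under 0.1 from TMM.

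Replicate numbers did not pair the samples: the mean correlation of same-numbered libraries was 0.00928 over 84 pairs, against -0.00464 over 168 others, and 7 of 24 libraries were closest to their own number. The replicate block called 2 for clones minus controls, Chek1 and Rpa1, and ended the calls of Rad54l for treated EV minus WT, Rad51c for treated 1CF10 minus EV and Rad54b for treated 1CF10 minus WT (adjusted p 0.0514 to 0.0558). Depth limits Rad51c, Xrcc3 and Fancc most.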
